A study of Mus musculus with 1666 samples.

Results

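The genes described here are 10 members of the Notch signalling pathway, taken by symbol out of the 49662 symbols of the deposited table. They are 3 receptors (Notch1, Notch2 and Notch3), 3 ligands (Jag1, Jag2 and Dll1) and 4 genes that the pathway is known to switch on (Hes1, Hey1, Heyl and Nrarp). Mouse whisker follicles had been profiled cell by cell with RamDA-seq, which reads total RNA over the full length of transcripts, at 7 embryonic stages. The mice carried a transgene for nuclear Kikume Green-Red, a fluorescent protein that light turns from green to red. From E12.0 to E17.0, at 6 stages, whole whisker follicles had been turned red, and cells with ITGA6 (the alpha 6 integrin of basal epidermis), without CD31 (an endothelial surface protein) and with the red form had been sorted. The E11.5 cells had been sorted on ITGA6 and CD31 alone, without the light step. Of 1666 labelled cells, 52 were marked as low quality and carried no values, which left 1614 cells. Cells with the same stage and the same code in their titles are taken here as 1 library plate, which gave 18. That a code stands for a plate is a reading of the titles. Neither embryo nor litter is named in the labels, so a stage counted as 1 sample.

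Notch receptors are cell surface proteins that are activated by ligands of the Jagged and Delta families on a neighbouring cell. Ligand binding leads to cleavage of the receptor, and its intracellular part enters the nucleus, joins the DNA-binding protein RBPJ and switches on genes of the Hes and Hey families and Nrarp. In skin the pathway is known for its part in the differentiation of suprabasal epidermis and of the inner layers of the hair follicle, and a ligand made in the same cell as a receptor can also block it.

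The sort was meant for basal epithelium, yet the table holds other cells too. Epithelial cells were taken as those with Krt5 and Trp63 at 10 TPM or more and Col3a1 under 50 TPM, and fibroblast-like cells as those with Col3a1 at 50 TPM or more, Pdgfra at 10 TPM or more and Trp63 under 10 TPM. TPM is a transcript abundance scaled for gene length and for the library's total, so levels of different genes can be set side by side, while depth per cell is unknown. Of the 1614 cells, 1035 were epithelial (64.1%, exact 95% interval 61.7 to 66.5%), 417 were fibroblast-like and 162 were neither. All 10 markers of an epithelial list, among them Krt14 and Itgb4, reached 10 TPM in at least 50% of the epithelial cells and 0 of 10 did so in the fibroblast-like cells. Of 10 fibroblast markers, 6 did so in the fibroblast-like cells and 1 (Vim) in the epithelial cells. Of 8 endothelial markers, 0 did so in either class, and their summed level in epithelial cells ran from 11.9 TPM at E14.0 to 43.98 TPM at E12.0. Single epithelial cells were less clean: 109 of 1035 had 3 or more fibroblast markers at 10 TPM or more, and 25 had 3 or more endothelial markers. The first stage, E11.5, gave 54 epithelial cells, E12.0 gave 267, E13.0 gave 53, E13.5 gave 159, E14.0 gave 144, E15.0 gave 178 and E17.0 gave 180. Fibroblast-like cells were 210 of the E13.0 cells, 126 of the E15.0 cells, 46 of E17.0, 19 of E14.0, 14 of E11.5, 2 of E13.5 and 0 of E12.0. In epithelial cells the median count of genes reaching 1 TPM ran from 16500 at E17.0 to 19490 at E12.0.

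Plate 1 of E15.0 differed in its make-up from the other plates of its stage, holding 10 epithelial and 73 fibroblast-like cells. Its values are given beside the results they touch. The plates of E13.0 were also mostly fibroblast-like, with 14 to 23 epithelial and 63 to 74 fibroblast-like cells each. The labels' library descriptions come in a form that ends in a lane number (plate 1 of E12.0 and of E13.0, and every plate from E13.5 on) and a form that ends in a sample number (E11.5, and plates 2 and 3 of E12.0 and of E13.0). This difference is only what the labels show, and fits within the lane form are given below. A stage level is the mean over the cells of each plate, then over plates, and the spread given is the range of plate means. Exact binomial intervals on shares of cells cover counting error only.

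The members lie on several mouse chromosomes. By GENCODE M21 on the mm10 build, Notch1 is at chr2:26457903-26516663, Nrarp at chr2:25180758-25183339 and Jag1 at chr2:137081456-137116644. Notch3 is at chr17:32120820-32166852 and Dll1 at chr17:15367354-15376872. Promoter sequence was taken from the RefSeq promoter table of GRCm38.p6 (mm10), which held 7 of the 10 members (all but Hes1, Hey1 and Heyl). The 250 bases before the start site are shown for Notch3 and Nrarp, which were found together in single epithelial cells more often than their separate shares give, and for Dll1, which was found with each of them less often than those shares give. For Dll1 the table held a second window within the gene, and the window outside the GENCODE gene span is shown. Capitals mark CACGTG, a palindromic hexamer of the E-box kind.
Nrarp, chr2:25180508-25180757, plus strand: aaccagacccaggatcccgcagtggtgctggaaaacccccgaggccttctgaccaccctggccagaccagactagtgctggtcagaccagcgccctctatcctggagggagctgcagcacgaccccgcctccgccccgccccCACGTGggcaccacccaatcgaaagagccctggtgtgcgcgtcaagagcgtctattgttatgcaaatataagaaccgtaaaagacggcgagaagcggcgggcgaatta
Notch3, chr17:32166891-32167140, minus strand: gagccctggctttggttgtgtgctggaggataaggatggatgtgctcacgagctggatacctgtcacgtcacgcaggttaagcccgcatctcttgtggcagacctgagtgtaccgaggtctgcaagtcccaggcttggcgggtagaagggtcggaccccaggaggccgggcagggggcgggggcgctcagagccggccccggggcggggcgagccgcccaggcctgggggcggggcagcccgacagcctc
Dll1, chr17:15376933-15377182, minus strand: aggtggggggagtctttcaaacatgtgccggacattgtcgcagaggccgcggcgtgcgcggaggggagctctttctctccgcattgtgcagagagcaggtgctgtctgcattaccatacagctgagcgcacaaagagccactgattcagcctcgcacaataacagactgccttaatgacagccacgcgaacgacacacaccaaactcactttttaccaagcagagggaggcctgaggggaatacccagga
The hexamer TGGGAA, the core that RBPJ is known to bind, was searched on both strands (TTCCCA on the other) and was in none of these 3 windows, while 21.6% of 32851 promoter windows of the same length held it. CACGTG was found 1 time in the Nrarp window and 0 times in the others, against 6.02% of all windows. G and C made up 61.2% of the Nrarp window, 68.8% of the Notch3 window and 56% of the Dll1 window, against a median of 52.4% over all windows. CG dinucleotides numbered 18, 17 and 13 in the same order, against a median of 6. The other Dll1 window, chr17:15375824-15376073, held 64% G and C and 21 CG dinucleotides, and 0 of either hexamer. These matches describe letters in the windows and nothing about binding.

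Among the receptors, Notch1 had the highest mean over stages in both classes, although in fibroblast-like cells of E11.5 it was the lowest of the 3, at 21.6 TPM against 22.4 for Notch2 and 29.4 for Notch3. Notch1, the main receptor known in epidermal differentiation, averaged 69.6 TPM in epithelial cells of E11.5 and 81.4 TPM in those of E12.0 (plates 66.4 to 100.3). It stood at 252 TPM at E13.0 (203 to 293), 272 at E13.5 (226 to 317), 220.5 at E14.0 (209 to 232), 223.5 at E15.0 (214 to 233) and 249.6 at E17.0 (224 to 295). Every plate from E13.0 on was thus above every plate of E11.5 and E12.0, and the plates of the 5 later stages overlapped. The share of epithelial cells at 10 TPM or more ran from 92.6% to 100%. In fibroblast-like cells Notch1 stood at 21.6 TPM at E11.5, 118 at E13.0 (104 to 132), 79.6 at E14.0 (65.1 to 94.1), 74.8 at E15.0 (42.6 to 101) and 82.02 at E17.0 (61.4 to 102.5). At each of these 5 stages the fibroblast-like plates lay below the epithelial plates.

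Notch2, a receptor expressed beside Notch1 in many epithelia, stood at 11.47 to 16.3 TPM in epithelial cells at 6 of 7 stages and at 34.7 TPM at E13.0 (33.5 to 35.2). E13.0 was also the highest stage in fibroblast-like cells, at 61.8 TPM (60.98 to 63.2) against 18.4 to 33.1 TPM at the other 4 stages. Notch3, a receptor known in suprabasal keratinocytes and in the smooth muscle of vessels, averaged 4.49 TPM in epithelial cells of E11.5 and 5.09 in those of E12.0 (4.07 to 5.93). It then stood at 17.03 TPM at E13.0 (10.8 to 27.8), 16.9 at E13.5 (13.4 to 20.4), 13.7 at E14.0 (11.3 to 16.2), 14.5 at E15.0 (9.999 to 23.9) and 9.15 at E17.0 (8.32 to 10.2). The later plates were all above the early ones, but at each stage most cells stayed under 10 TPM. Between 54.4% (E17.0) and 80.9% (E12.0) of epithelial cells had Notch3 at 1 TPM or more. The share of epithelial cells with Notch3 at 10 TPM or more ran from 9.74% (6.46 to 13.9%) at E12.0 to 34.03% (26.3 to 42.4%) at E14.0, and the median cell was under 4 TPM at each stage. In fibroblast-like cells Notch3 was spread more evenly, at 16.8 to 30.4 TPM, with 70.6 to 100% of cells at 10 TPM or more.

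**Figure D1:**
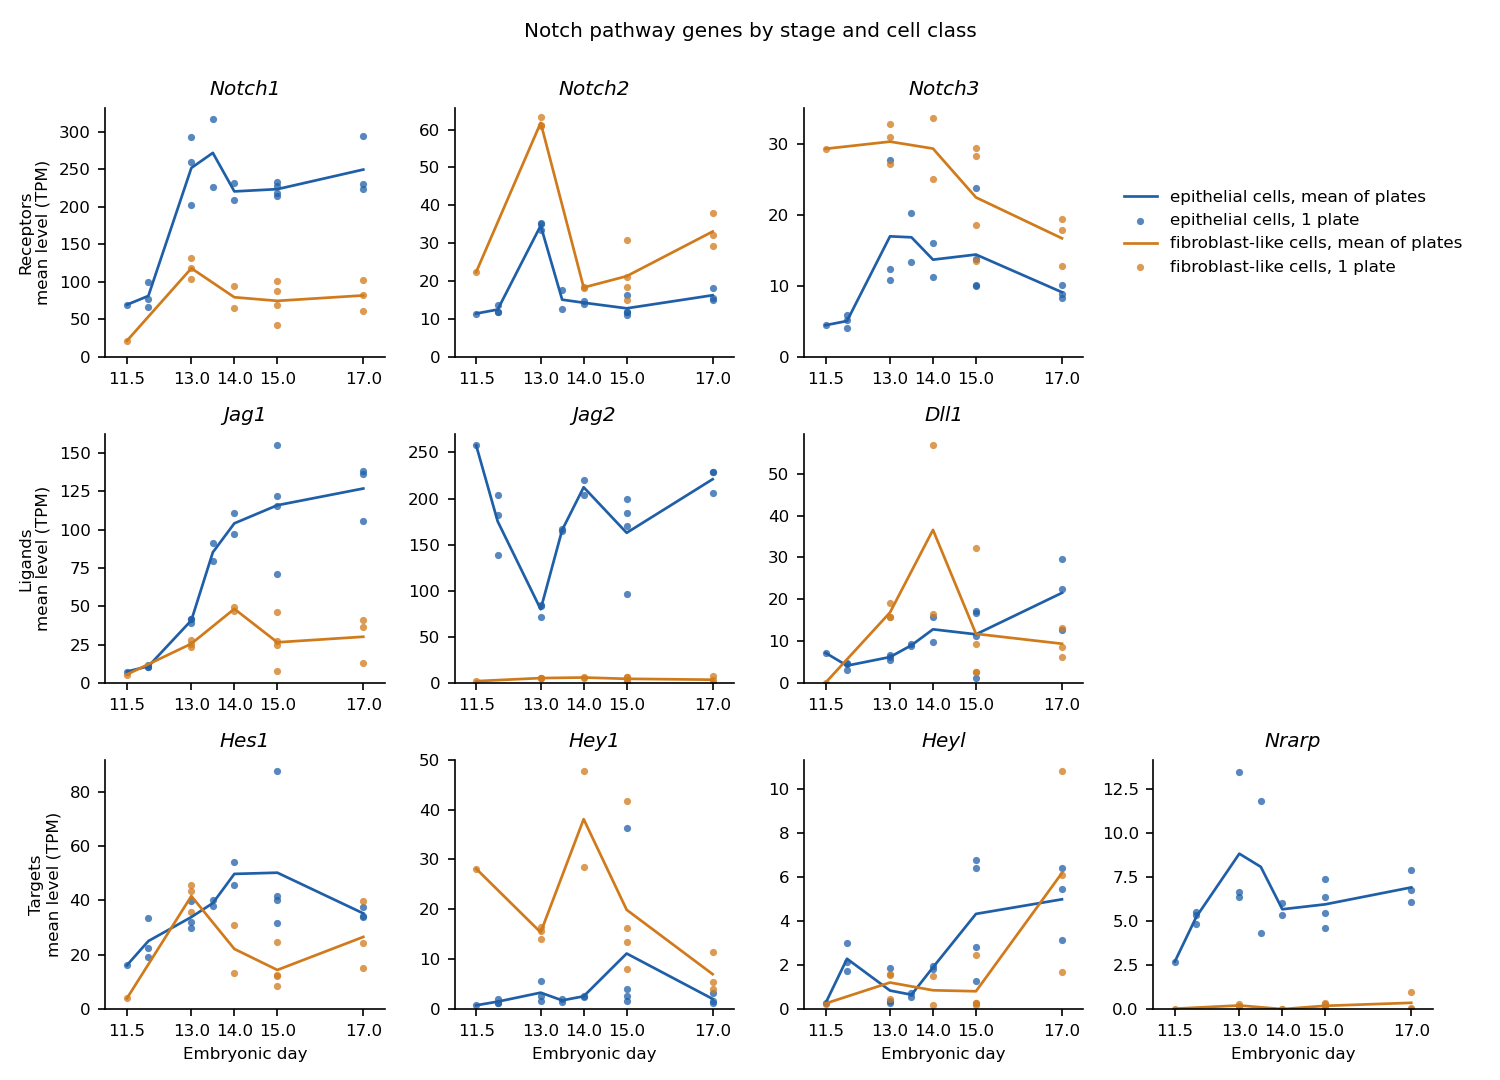
Mean level in TPM (y axes, each from 0) against embryonic day for the 3 receptors (top), 3 ligands (middle) and 4 targets (bottom), in epithelial cells (blue) and fibroblast-like cells (orange). Points are single plates with at least 3 cells of the class and lines join the means of plates, so the orange line passes over E12.0 and E13.5, where that class had too few cells. Jag1 in epithelial cells is at 7.499 TPM at the first stage and 126.8 TPM at the last, while Jag2 in fibroblast-like cells and Nrarp in the same cells lie near the axis.

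Jag1, a ligand known in suprabasal epidermis and in the hair bulb, stood in epithelial cells at 7.499 TPM at E11.5, 10.9 at E12.0 (lowest plate 10.6) and 40.9 at E13.0 (39.2 to 41.9). It stood at 85.25 TPM at E13.5 (79.2 to 91.3), 104 at E14.0 (97.2 to 111), 116 at E15.0 (71.1 to 155) and 126.8 at E17.0 (106 to 138). The plates did not overlap between neighbouring stages up to E14.0 and overlapped from there on. The share of epithelial cells at 10 TPM or more was 24.1% (13.49 to 37.6%) at E11.5, 42.3% and 79.2% at the next 2 stages and 91.7 to 99.4% afterwards. In fibroblast-like cells Jag1 stood between 5.58 TPM at E11.5 and 48.4 TPM at E14.0, with 28.6 to 42.1% of cells at 10 TPM or more.

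Jag2, a ligand known in the basal layer of the epidermis, was high from the start. In epithelial cells it stood at 258 TPM at E11.5, 175 at E12.0 (139 to 203.9), 80.01 at E13.0 (71.9 to 84.6), 166 at E13.5 (164 to 168), 212 at E14.0 (204.4 to 220.3), 163 at E15.0 (96.8 to 199.7) and 221 at E17.0 (206 to 229). E13.0 was the lowest stage, and its plates lay below those of every other stage. Plate 1 of E15.0, mostly fibroblast-like as the E13.0 plates were, gave the 96.8 TPM, against 170.8 to 199.7 TPM on the other E15.0 plates. The part of plate make-up in the E13.0 value was not tested. In fibroblast-like cells Jag2 stood at 2.09 to 6.01 TPM. Dll1, a Delta ligand known in embryonic epidermis and in the dermal condensate, stood in epithelial cells at 7.22 TPM at E11.5, 4.16 at E12.0 (3.19 to 4.80), 6.21 at E13.0 (5.54 to 6.81), 9.03 at E13.5 (8.76 to 9.30), 12.8 at E14.0 (9.81 to 15.9), 11.6 at E15.0 (1.299 to 17.3) and 21.5 at E17.0 (12.6 to 29.5). The highest value came at E17.0, and plates spread widely from E14.0 on. Between 11.2% and 37.8% of epithelial cells had Dll1 at 10 TPM or more. In fibroblast-like cells it stood at 0.0726 TPM at E11.5, 16.9 at E13.0, 36.6 at E14.0 (16.4 to 56.7), 11.8 at E15.0 (2.62 to 32.3) and 9.39 at E17.0.

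Hes1 was the most abundant target in epithelial cells. Hes1, a repressor known to keep cells from differentiating early, stood there at 16.1 TPM at E11.5, 25.02 at E12.0 (19.3 to 33.4), 33.9 at E13.0 (29.9 to 39.8), 38.98 at E13.5 (37.98 to 39.97), 49.7 at E14.0 (45.5 to 53.95), 50.2 at E15.0 (31.5 to 87.6) and 35.2 at E17.0 (34.04 to 37.5). Its share of cells at 10 TPM or more ran from 51.9% at E11.5 to 83.3% at E14.0. Nrarp, an ankyrin repeat protein that is both a target and an inhibitor of the pathway, stood in epithelial cells at 2.70 TPM at E11.5 and 5.24 to 8.83 TPM afterwards. It reached 10 TPM in 3.70% to 22.8% of epithelial cells by stage and in 0 of 417 fibroblast-like cells, where stage means ran from 0 to 0.356 TPM. At E13.0 the 0 of 210 cells allows a share of up to 1.43% by the limit of 3 cells, and the exact interval reaches 1.74%. At E14.0 Nrarp is listed at 0 in every fibroblast-like cell.

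The 2 Hey-type genes were low in epithelium. Hey1, a repressor known in mesenchyme and vessels, had its highest epithelial mean, 11.1 TPM, at E15.0. The other stages gave 0.762 TPM (E11.5), 1.496 (E12.0), 3.29 (E13.0), 1.75 (E13.5), 2.57 (E14.0) and 2.04 TPM (E17.0). The E15.0 value rests on plate 1, where 10 epithelial cells averaged 36.25 TPM against 1.58 to 4.02 on the other plates, and the mean without that plate is 2.77 TPM. In fibroblast-like cells Hey1 stood at 28.1, 15.4, 38.1, 19.9 and 6.999 TPM at E11.5, E13.0, E14.0, E15.0 and E17.0. Heyl, a related repressor known in vascular smooth muscle, stood at 0.264 to 4.99 TPM in epithelial cells and at 0.253 to 6.19 TPM in fibroblast-like cells, highest in both at E17.0. At most 8.89% of epithelial cells at any stage had Heyl at 10 TPM or more.

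E15.0 plate 1 moved other members too. Its 10 epithelial cells stood at 71.1 TPM for Jag1 (115 to 155 on the other plates), 96.8 TPM for Jag2 (170.8 to 199.7), 1.299 TPM for Dll1 (11.3 to 17.3), 87.6 TPM for Hes1 (31.5 to 41.6) and 23.9 TPM for Notch3 (9.999 to 13.9). Ordered by the mean over stages, the levels in epithelial cells were Notch1 at 195.5 TPM, Jag2 at 182, Jag1 at 70.2, Hes1 at 35.6, Notch2 at 16.8, Notch3 at 11.6, Dll1 at 10.4, Nrarp at 6.20, Hey1 at 3.29 and Heyl at 2.18 TPM. Without E15.0 plate 1 the last values are 2.096 TPM for Hey1 and 2.06 TPM for Heyl. In fibroblast-like cells they were Notch1 at 75.2 TPM, Notch2 at 31.4, Jag1 at 27.3, Notch3 at 25.7, Hes1 and Hey1 at 21.7 each, Dll1 at 14.9, Jag2 at 4.35, Heyl at 1.86 and Nrarp at 0.154 TPM. In both orders the range of each gene's stage means overlapped that of the next gene.

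The question of change with age was put to the 7 stages as a linear trend in epithelial cells. The E11.5 cells had been sorted without the light step, which cannot be told apart from their stage. No member passed the test, and 4 had a rise at an unadjusted p under 0.05. Trends were fitted with limma on log2(TPM + 1) against embryonic day over 23667 genes that averaged 1 TPM or more, at a Benjamini-Hochberg adjusted p of 0.05. Of all genes tested 1.23% rose and 0.646% fell past the test (1.87% in all), and 9.24% had a rise at an unadjusted p under 0.05. The slope of Jag1 was 0.74 per day (SE 0.17, limma adjusted p = 0.0746). That of Dll1 was 0.34 per day (SE 0.07, limma adjusted p = 0.0535), that of Heyl 0.36 (SE 0.11, limma adjusted p = 0.134) and that of Notch1 0.31 (SE 0.12, limma adjusted p = 0.212). The median slope of the 10 members was 0.20 per day, against -0.01 over all genes tested. Markers of other cell states moved over the same stages in epithelial cells. The summed level of 6 suprabasal markers ran from 9.17 TPM at E12.0 to 849.3 TPM at E14.0, and that sum was 20.97 TPM for 7 inner root sheath markers and 51.7 TPM for 10 fibroblast markers at E11.5, their lowest stage. At E17.0, the highest stage of both lists, these sums were 572.9 and 261.5 TPM. Their part in the trends was not tested.

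Several settings carried Dll1, Jag1 and Hes1 past the threshold. Dll1 passed when E15.0 plate 1 was left out (slope 0.36, limma adjusted p = 0.0441) and when all cells of a stage were pooled (slope 0.35, limma adjusted p = 0.0427). Jag1 passed when stages were ranked rather than dated (slope 0.70 per rank, limma adjusted p = 0.0129) and without E17.0 (slope 1.21 per day, limma adjusted p = 0.0368). Hes1 passed without E17.0 (slope 0.45, limma adjusted p = 0.0474). Within plates of the lane form, which start at E12.0, the slopes were 0.61 per day for Jag1, 0.39 for Dll1, 0.24 for Notch1 and 0.05 for Hes1, and none passed. Within the sample number form, which covers E11.5 to E13.0, they were 1.59 for Jag1, -0.08 for Dll1, 1.37 for Notch1 and 0.74 for Hes1, and none passed. The part of the library form in the trend was not tested further. Of the title codes taken as plates, 4 stand at more than 1 stage. They are 1 at E13.0 and E15.0 (plate 1 of each) and 3 at E15.0 and E17.0 (plates 2 to 4 and 1 to 3). Within the first, Jag1 stood at 39.2 and 71.1 TPM and Dll1 at 6.81 and 1.299 TPM at E13.0 and E15.0. Within the other 3, going from E15.0 to E17.0, Jag1 was lower in 2 and higher in 1 (log2 differences -0.16 to 0.16) and Dll1 was higher in 2 and lower in 1 (-0.38 to 1.31). The codes of E11.5, E12.0, E13.5 and E14.0 stand at 1 stage each.

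Of 52 other pathway genes on a list drawn up for this pathway, 43 could be tested for trend, and 2 rose and 0 fell. Furin, a protease that cleaves Notch receptors on their way to the surface, rose from 38.5 TPM at the first stage to 195 TPM at the last (slope 0.43, SE 0.07, limma adjusted p = 0.0283). Kat2b, an acetyltransferase that works with the nuclear Notch complex, rose from 9.74 to 40.5 TPM (slope 0.30, SE 0.05, limma adjusted p = 0.033). The receptor Notch4 and the ligand Dll4, known from vessels, stood at 3.46 to 8.98 TPM and at 0.0955 to 1.68 TPM in epithelial cells.

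Epithelial and fibroblast-like cells of the same stages differed in 7 of the 10 members. Jag2, Nrarp, Notch1 and Jag1 were higher in epithelial cells, and Hey1, Notch3 and Notch2 were higher in fibroblast-like cells, each at 5 of 5 stages. The difference was taken within each of the 5 stages with at least 10 cells of each class and tested with limma over 24162 genes. Of all genes tested, 7.99% were higher and 13.3% lower in epithelial cells, 21.3% in all. With median-of-ratios scaling the calls were 2541 higher and 2394 lower, against 1931 and 3217 as deposited. The 4 genes that define the classes are not members.

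Jag2 showed the widest gap, 5.08 on the log2 scale (SE 0.36, limma adjusted p = 0.000513), and Nrarp followed at 2.54 (SE 0.19, limma adjusted p = 0.000567). Notch1 was higher in epithelial cells by 1.47 (SE 0.10, limma adjusted p = 0.000464) and Jag1 by 1.25 (SE 0.29, limma adjusted p = 0.0267). Hey1 differed by -2.32 (SE 0.49, limma adjusted p = 0.0214), Notch3 by -1.14 (SE 0.28, limma adjusted p = 0.0322) and Notch2 by -0.75 (SE 0.12, limma adjusted p = 0.00838). These last 3 were thus lower in epithelium. Hes1 was higher in epithelial cells at 4 of 5 stages and missed the threshold (0.95, SE 0.32, limma adjusted p = 0.0832). Dll1 differed by 0.26 (limma adjusted p = 0.805) and Heyl by 0.34 (limma adjusted p = 0.443). The median difference of the 10 members was 0.65, against -0.10 over all genes tested.

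Calls on Jag2, Nrarp, Notch1 and Notch2 held within plates of the lane form, at 4.79, 2.63, 1.39 and -0.70, as did those on Jag1 at 1.48, Notch3 at -0.93 and Hey1 at -1.95. Leaving out a single stage ended the call on 3 members. Jag1 was lost without E14.0 (1.29, limma adjusted p = 0.0791), E15.0 (1.04, limma adjusted p = 0.0827) or E17.0 (1.05, limma adjusted p = 0.0753). Notch3 was lost without E13.0 (limma adjusted p = 0.0682), E14.0 (0.0915), E15.0 (0.0636) or E17.0 (0.0683). Hey1 was lost without E13.0 (limma adjusted p = 0.057) or E14.0 (limma adjusted p = 0.0755), and Hes1 was called without E13.0 (1.26, limma adjusted p = 0.0363). Dll1 changed sign without E11.5, to -0.41. Without a filter on low genes, Jag1, Notch3 and Hey1 missed the threshold (limma adjusted p = 0.0725, 0.0809 and 0.0628), as did Notch3 with median-of-ratios scaling (-1.02, limma adjusted p = 0.0698) and Jag1 with looser class thresholds (0.95, limma adjusted p = 0.163).

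**Figure D2:**
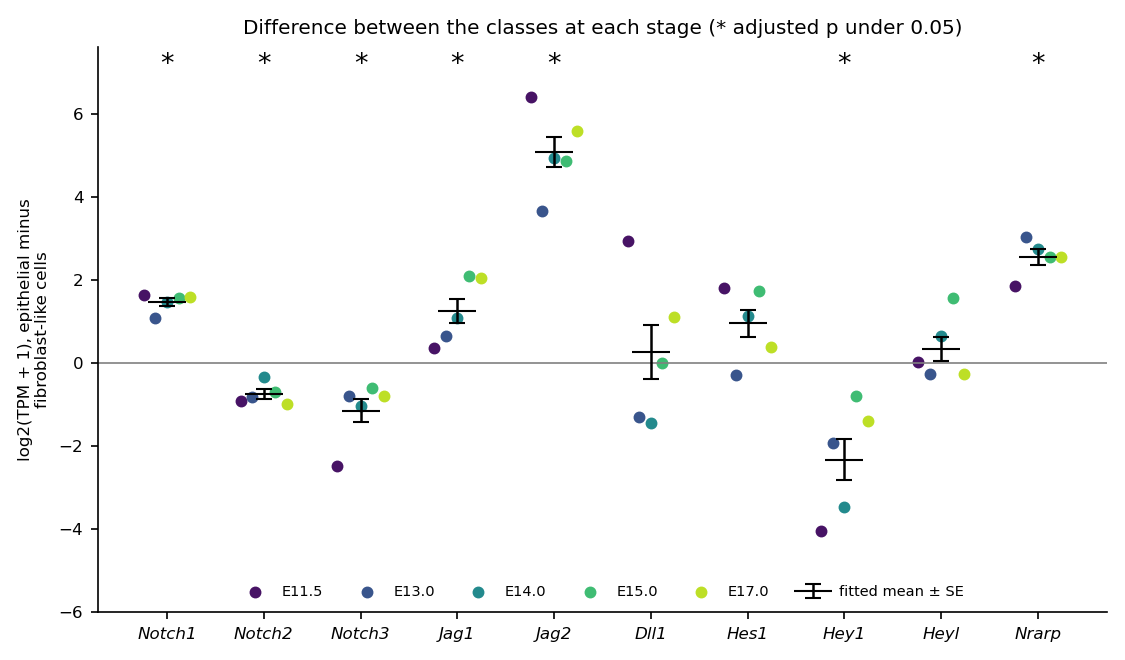
Difference in log2(TPM + 1) between epithelial and fibroblast-like cells (y axis) for the 10 members (x axis). Coloured points are the 5 stages, black bars the fitted mean with its SE, and a star marks a limma adjusted p under 0.05. All 5 points of Jag2 and of Nrarp lie above 0 and all 5 of Hey1 lie below it, while those of Dll1 lie on both sides.

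Of the other pathway genes, 45 could be tested between the classes, and 6 were higher and 7 lower in epithelial cells. Lfng, an enzyme that adds sugars to Notch receptors, was higher in epithelium (25.6 against 3.84 TPM, log2 difference 2.37, limma adjusted p = 0.0165), as was Maml2, a coactivator of the nuclear complex (11.1 against 5.32 TPM, limma adjusted p = 0.00731). Hey2, another Hey repressor, was lower (0.270 against 31.4 TPM, log2 difference -4.01, limma adjusted p = 0.00665). Dlk1, a ligand-like protein, was lower too (2.43 against 29.8 TPM, log2 difference -3.17, limma adjusted p = 0.00916). Whether the trend with day differed between the classes was tested as well, and 0 of 24162 genes passed in limma, with 14.6% at an unadjusted p under 0.05. Jag1 had the lowest p of the members there (0.35 per day steeper in epithelial cells, SE 0.07, limma adjusted p = 0.186).

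In single epithelial cells a ligand and a receptor were together nearly everywhere. At least 1 of the 3 ligands and 1 of the 3 receptors were at 10 TPM or more in 98.2% of epithelial cells (97.1 to 98.9%) and in 49.6% of fibroblast-like cells (44.7 to 54.5%). The remaining 50.4% of fibroblast-like cells had a receptor and no ligand, a state found in 0.0966% of epithelial cells. These values follow from the separate shares and show no link between ligand and receptor. Any ligand was in 99.9% and any receptor in 98.3% of epithelial cells, and in 49.6% and 100% of fibroblast-like cells. At least 2 ligands were found in 75.1% of epithelial and 19.7% of fibroblast-like cells, and all 3 receptors in 16.6% and 70.7%. These are counts of genes past 10 TPM and not amounts, and they depend on that threshold. At 1 TPM or more, Jag1 alone was in 61.9% of fibroblast-like cells. By level, the mean over stages of Notch1 alone was 195.5 TPM in epithelial and 75.2 TPM in fibroblast-like cells.

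Jag1 and Notch1 were found together in more cells at the later stages. Both were at 10 TPM or more in 24.1% of E11.5 epithelial cells, 41.2% of E12.0 cells and 79.2% of E13.0 cells. The share was then 94.97% (E13.5), 88.2% (E14.0), 97.2% (E15.0) and 96.7% (E17.0). Since Notch1 alone reached 10 TPM in 92.6 to 100% of epithelial cells by stage, this share follows that of Jag1 alone. At the same time, cells with Jag2 and no Jag1 made up 75.9% of E11.5 cells, 57.7% of E12.0 cells and 20.8% of E13.0 cells, then 5.03% (E13.5), 7.64% (E14.0), 0.562% (E15.0) and 1.11% (E17.0). Jag2 reached 10 TPM in 100% of epithelial cells at E11.5 and E12.0 and in 86.8 to 92.7% later. Shares of cells have no test here, since cells of a stage are not replicates. The E11.5 cells had also been sorted without the light step.

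**Figure D3:**
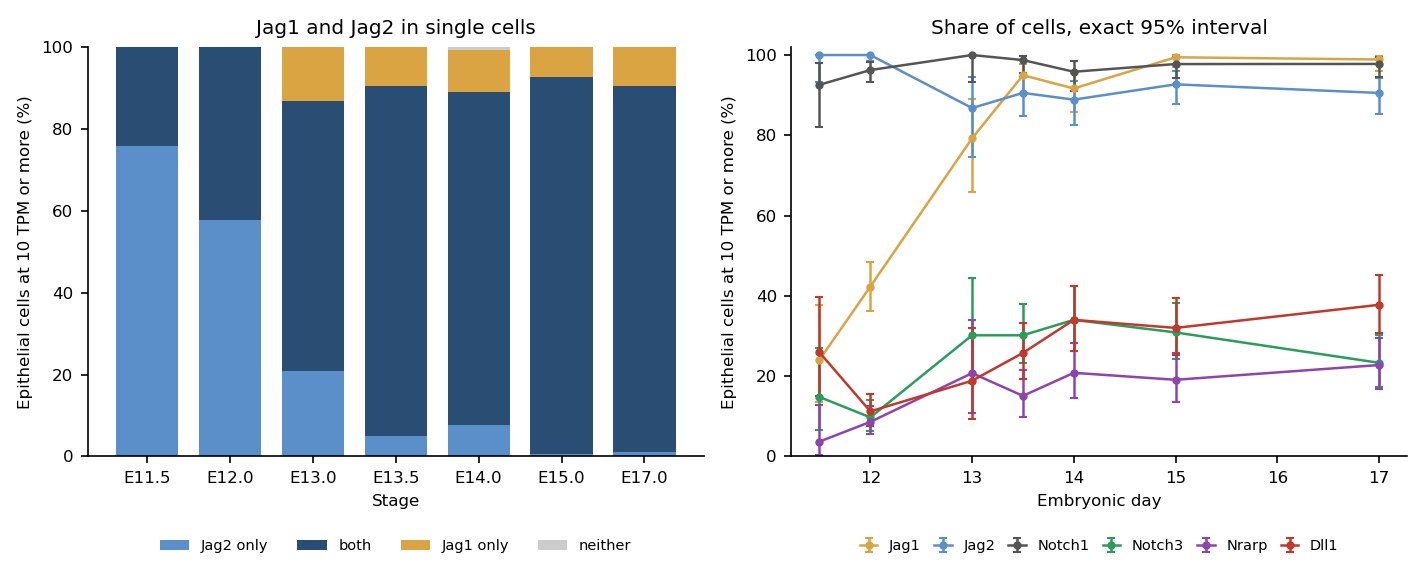
Left, share of epithelial cells (y axis, %) at each stage with Jag2 only, both Jag1 and Jag2, Jag1 only, or neither at 10 TPM or more. Right, share of epithelial cells at 10 TPM or more against embryonic day for 6 members, with exact 95% intervals for counting error. The Jag2-only share is 75.9% at the first stage and 1.11% at the last, the Jag1 line is at 24.1% and 98.9%, and Notch3, Nrarp and Dll1 stay under 40%.

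Pairs were then set against the number of cells expected from the separate shares within each plate. Notch1 was in nearly all epithelial cells, so its pairs lay near 1 by construction. Notch3 stood out: it was with Heyl in 38 cells against 10.8 expected (ratio 3.52), with Hey1 in 29 against 13.2 (2.19) and with Nrarp in 89 against 44.6 (1.997). Notch3 was with Dll1 in 36 cells against 69.8 expected (0.52) and with Jag2 in 178 against 223 (0.80). The Jag2 and Notch3 ratio was 1 at E11.5 and E12.0, when every epithelial cell had Jag2, and 0.65 to 0.83 at the later stages. The Dll1 and Notch3 ratio was under 1 at 6 of 7 stages and 1.32 at E12.0, on 4 cells. With the targets, Jag2 was at 0.78 of the expected count for Nrarp, 0.68 for Heyl, 0.87 for Hey1 and 0.99 for Hes1. Dll1 was at 0.59 for Nrarp, 0.47 for Heyl, 0.73 for Hey1 and 0.99 for Hes1. These ratios have no test. Jag2 and Dll1 were at 1.08 with each other. Jag2 reached 10 TPM in 86.8 to 100% of epithelial cells by stage, so its ratios there could not rise far above 1.

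Pairs in fibroblast-like cells were counted in the same way. There the ligands occurred together, with ratios of 1.4999 for Jag1 and Jag2, 1.68 for Jag1 and Dll1 and 1.59 for Jag2 and Dll1. Hey1 occurred with Dll1 at 1.57 and with Jag1 at 1.40 of the expected count. Notch3 lay at 1.04 with Dll1 and 0.98 with Jag2, where the epithelial cells had 0.52 and 0.80. The difference between the classes in these ratios was not tested. High ratios with Jag2 were possible only in fibroblast-like cells, so the ratios of Jag2 with the other ligands cannot be compared between the classes.

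**Figure D4:**
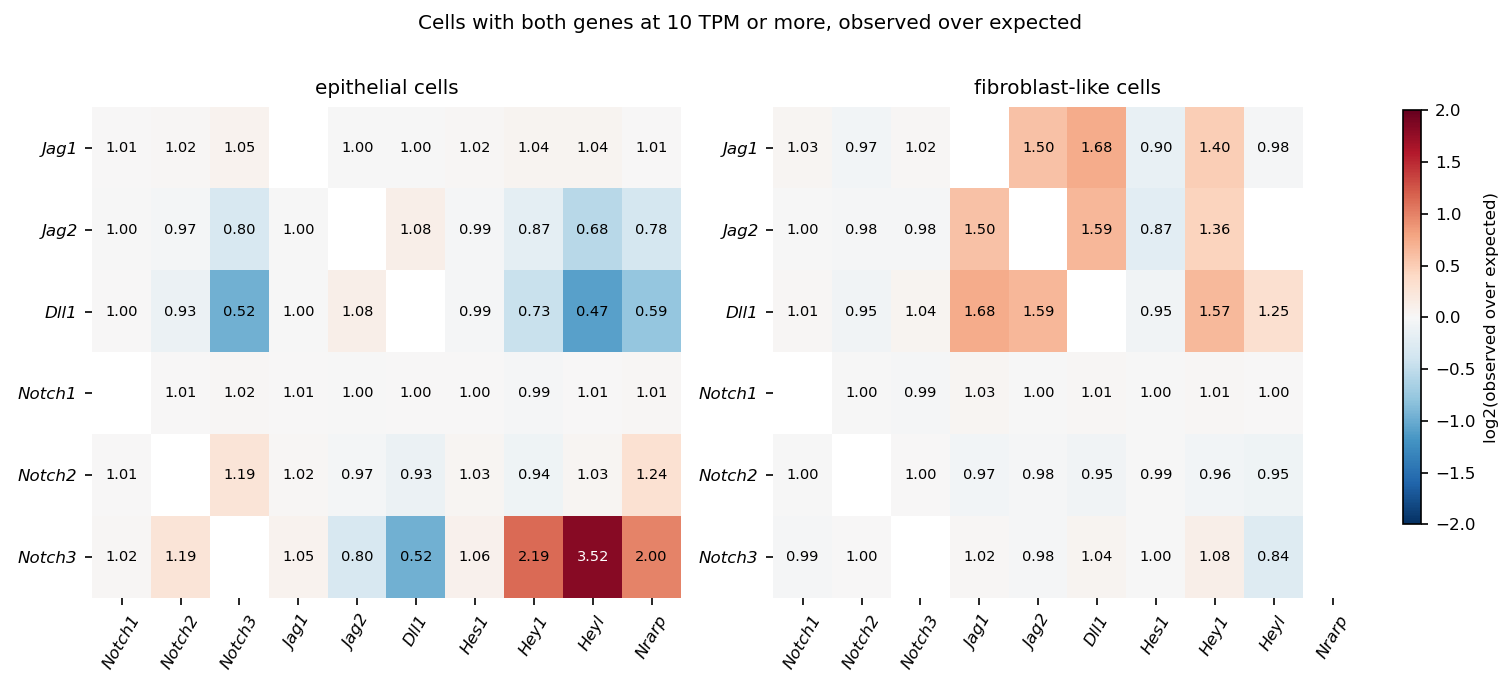
Cells with both genes at 10 TPM or more, as the ratio of the observed count to that expected within plates (numbers in the squares, colour on a log2 scale), for receptors and ligands (rows) against all members (columns). Left, epithelial cells; right, fibroblast-like cells; white squares are a gene with itself or pairs with under 5 cells expected. In epithelial cells Notch3 is above 1 with the targets and below 1 with Jag2 and Dll1, and in fibroblast-like cells the 3 ligands are above 1 with each other.

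Levels within plates are described by the partial Spearman correlation, adjusted for how many genes a cell had detected and averaged over stages. Over 1035 epithelial cells it was 0.37 for Notch1 and Notch3 (positive at 6 of 7 stages), 0.20 for Notch3 and Jag1 and 0.18 for Notch3 and Hes1 (both positive at 7 of 7). It was -0.28 for Notch3 and Jag2 (positive at 1 of 7) and -0.22 for Jag2 and Hes1 (positive at 0 of 7). For Jag2 and Dll1 it was 0.23 (positive at 7 of 7), and for Notch3 and Dll1 -0.18 (positive at 1 of 7). Pairs with high ratios of counts had smaller values, at 0.08 for Notch3 and Heyl, 0.11 for Notch3 and Hey1 and 0.16 for Notch3 and Nrarp, where the middle 95% of all genes ran from -0.16 to 0.16 for Notch3. In fibroblast-like cells the ligand pairs had 0.06 (Jag1 and Jag2), 0.10 (Jag1 and Dll1) and 0.06 (Jag2 and Dll1). Cells share plates and libraries, so these values carry no p.

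The genes most like each receptor in epithelial cells overlapped. Grhl3, a transcription factor of the epidermal barrier, was among the first 3 for Notch1 (0.49), Notch2 (0.30) and Notch3 (0.43). Jup, the junction protein plakoglobin, was among them for Notch1 (0.47) and Notch3 (0.48), and Nectin4, an adhesion molecule, for Notch3 (0.48). Jag1 was most like Egfr, the epidermal growth factor receptor (0.32). Jag2 was most like Itga3, an integrin of basal cells (0.51), then the matrix protein Sparc (0.46) and the growth factor receptor Fgfr2 (0.43). Dll1 was most like the ligand Wnt6 (0.28), Nrarp most like the membrane protein Emp2 (0.35), Hes1 most like Fam84a (0.28), Heyl most like Plekhg1 (0.20) and Hey1 most like Nrarp itself (0.19). Over the middle 95% of all genes, the values ran from -0.17 to 0.18 for Notch1, from -0.12 to 0.18 for Jag2 and from -0.09 to 0.10 for Hey1. These neighbours are the highest of all genes compared. By stage, Hey1 and Nrarp ran from -0.17 to 0.55 and Notch3 and Jup from -0.04 to 0.67. The other pairs named here were positive at every stage.

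Krt10, a keratin of suprabasal cells, was used to ask how the members differ in differentiating epithelium. At E13.5 and E14.0, cells with strong Krt10 had more of all 3 receptors, Jag1 and Hes1, and nearly lacked Jag2 and Dll1. At 50 TPM or more there were 20 such cells at E13.5, against 122 with Krt10 under 10 TPM, and 15 against 115 at E14.0. Notch3 stood at 81.3 against 6.25 TPM at E13.5 and 58.7 against 6.87 TPM at E14.0. Jag2 stood at 9.96 against 197 TPM and 8.87 against 242 TPM. Dll1 stood at 0.0284 against 11.3 TPM and 0.249 against 15.3 TPM. Notch1 stood at 677 against 205 TPM and 401 against 180.3 TPM, and Hes1 at 70.8 against 34.6 TPM and 100.2 against 41.3 TPM.

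This comparison at 50 TPM is an alternative to the comparison at 10 TPM, and only these 2 stages had enough cells, so leaving out either leaves no test. In limma over 22468 genes, 2.25% were higher and 4.57% lower in the strong Krt10 cells (6.81% in all), and 7 of 10 members passed. Notch3 was higher by 3.21 on the log2 scale (SE 0.20, limma adjusted p = 0.0234), Notch2 by 1.54 (limma adjusted p = 0.0315), Notch1 by 1.43 (limma adjusted p = 0.0368), Hes1 by 1.13 (limma adjusted p = 0.036) and Jag1 by 1.04 (limma adjusted p = 0.0361). Jag2 differed by -4.40 (SE 0.16, limma adjusted p = 0.0234) and Dll1 by -3.65 (SE 0.20, limma adjusted p = 0.0234). Nrarp stood at 34.6 against 2.64 TPM and 14.03 against 5.26 TPM and missed the threshold (2.28, limma adjusted p = 0.101).

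With the lower threshold of 10 TPM for Krt10, 6 stages could be used, and 0 of 23709 genes passed in limma, with 11.9% at an unadjusted p under 0.05 (3.81% higher and 8.1% lower). Of the members, 5 were higher and 2 lower at that unadjusted p. Hes1 was higher at 6 of 6 stages (mean 53.2 against 33.02 TPM, log2 difference 0.66, SE 0.09, limma adjusted p = 0.187). Notch3 was higher at 6 of 6 (27.6 against 7.997 TPM, limma adjusted p = 0.28) and Notch2 at 6 of 6 (27.6 against 15.4 TPM, limma adjusted p = 0.251). The gap in Notch3 was 2.86 at E13.5, 2.33 at E14.0, 1.64 at E13.0 and 1.07 at E15.0, and 0.27 and 0.23 at E12.0 and E17.0. Over the pooled cells of a stage, Jag2 stood at 93.6 against 242 TPM at E14.0 and 126 against 186 TPM at E15.0. Dll1 stood at 1.96 against 15.5 TPM and 11.9 against 14.5 TPM. Notch1 was higher at E14.0 (370 against 183 TPM) and lower at E15.0 (208 against 228 TPM). Jag1 did the same (153.5 against 91.7 TPM, then 121 against 129 TPM). Krt10-positive cells had fewer genes detected than the others at 5 of these 6 stages, for example a median of 15593 against 17789 at E13.0. The part of this in the result was not tested.

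Shh, a signal of the placode and hair matrix, and Sox9, a regulator of hair follicle stem cells, split the epithelium in other ways. Notch1 stood higher in Shh-positive cells at 5 of 5 stages, at 94.2 against 77.4 TPM at E12.0, 466 against 151.5 at E13.0, 282 against 214 at E14.0, 442 against 199.9 at E15.0 and 613 against 176 at E17.0. It missed the threshold (1.05, SE 0.25, limma adjusted p = 0.127) in a fit where 0.164% of 23836 genes were higher and 0.105% lower and 0 of 10 members passed. Without E12.0 it passed (1.24, limma adjusted p = 0.0397). In Sox9-positive cells Notch1 was lower at 5 of 6 stages, for example 166 against 453 TPM at E17.0, and missed the threshold (-0.59, SE 0.22, limma adjusted p = 0.212). In that fit 0 of 23714 genes passed in limma and 18.7% had an unadjusted p under 0.05. These are differences in means. At E12.0 Notch1 reached 10 TPM in 89.1% of Shh-positive cells and in 98.5% of the others. The partial Spearman correlation of Notch1 with Shh averaged 0.05 (-0.07 to 0.23 by stage, positive at 5 of 7). That with Sox9 averaged -0.04 (positive at 3 of 7). Both averages lie within the middle range of all genes given above for Notch1.

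Smaller sets of epithelial cells are given as values, without a test. At E13.0 and E13.5, 29 cells with Krt79, a keratin of the follicle canal, had Nrarp at 35.4 TPM against 3.86 TPM in the other 183, Notch3 at 48.9 against 11.52 TPM and Jag2 at 64.9 against 157 TPM. Of these 29 cells 20 also had Krt10 at 10 TPM or more. At E14.0 to E17.0, 81 cells with a keratin of the inner root sheath at 10 TPM or more had Notch1 at 455 TPM against 190 TPM in the other 421, and Nrarp at 12.96 against 5.05 TPM. Nrarp was higher in them at each of the 3 stages, at 12.7 against 4.86 TPM, 12.4 against 5.55 TPM and 13.3 against 4.63 TPM. Dll1 reached 10 TPM in 53.1% of them and 31.1% of the others. At E17.0, 109 cells with both Sox9 and Nfatc1, genes of bulge stem cells, had Notch1 at 167 TPM against 374 TPM in the other 71 and Nrarp at 4.81 against 10.1 TPM.

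In the fibroblast-like class, mean levels of Dll1, Jag1 and Hey1 were higher in cells with Sox2, a gene of the dermal condensate and papilla that Schwann and Merkel cells also express. At E13.0, 75 Sox2-positive cells had Dll1 at 39.55 TPM against 4.06 TPM in the other 135, Jag1 at 56.3 against 8.82 TPM and Hey1 at 30.4 against 6.99 TPM. Dll1 was at 10 TPM or more in 60% of the former and 8.15% of the latter, Jag1 in 62.7% and 19.3%, and Hey1 in 80% and 23.7%. At E15.0, 35 Sox2-positive cells had Dll1 at 19.5 TPM against 2.38 TPM in 91 others, and at E17.0 25 had 17.46 TPM against 0.722 TPM in 21 others. Jag1 stood at 42.97 against 8.07 TPM and at 45.98 against 7.65 TPM at these stages, and Hey1 at 26.05 against 9.57 TPM and at 10.4 against 2.97 TPM. At E15.0, 73 of the 126 fibroblast-like cells came from plate 1. Plate 1 was itself low in this class, at 7.545 TPM for Jag1 against 24.76 to 46.23 on the other plates. Hey1 stood there at 8.061 against 13.47 to 41.76 TPM and Dll1 at 2.621 against 2.64 to 32.29 TPM. The E15.0 values by Sox2 are pooled over plates, and the part of plate in them was not tested. Notch2 ran the other way at E13.0, at 48.7 against 69.1 TPM, and Hes1 differed in direction by stage, at 38.99 against 42.7 TPM at E13.0, 19.2 against 10.7 at E15.0 and 11.7 against 41.5 at E17.0. The partial Spearman correlation of Dll1 with Sox2 was positive at 4 of 4 stages, with a mean of 0.54. That of Jag1 was 0.165 (positive at 4 of 5) and that of Hey1 -0.01 (positive at 2 of 5, from -0.45 to 0.53). Of the fibroblast-like cells, 2 carried 3 or more nerve and Schwann markers and 0 carried 3 or more Merkel markers.

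**Figure D5:**
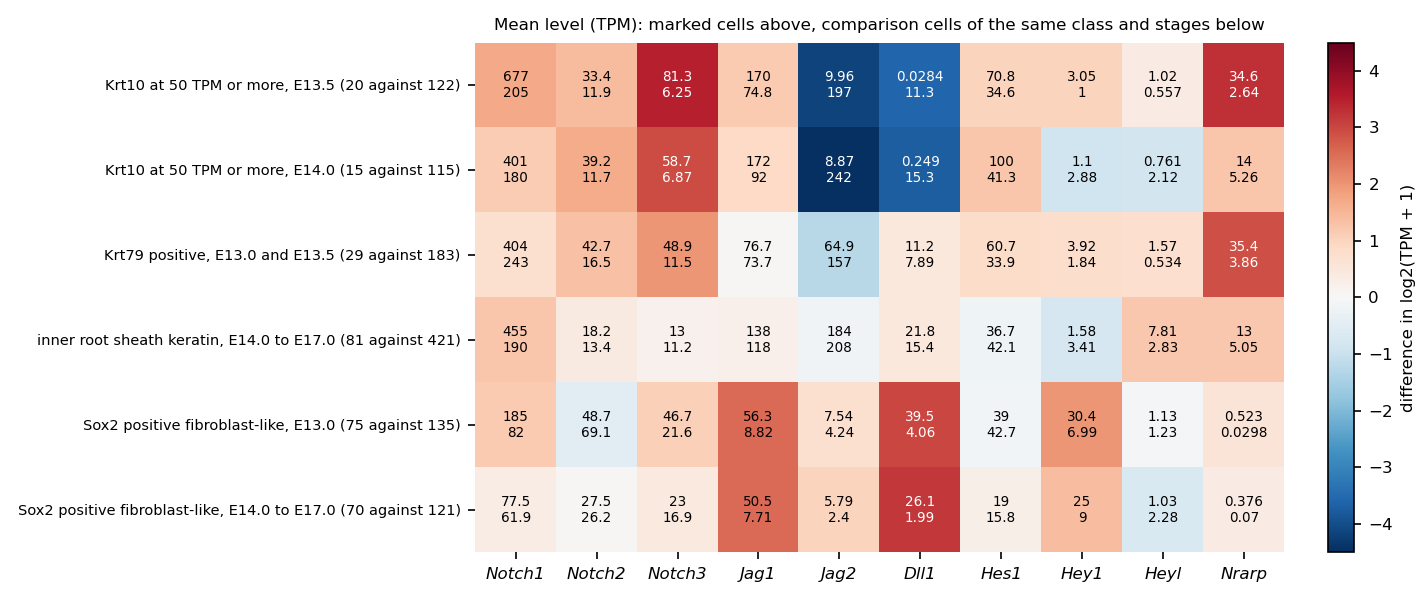
Mean level in TPM of the 10 members (columns) in marked cells (upper number) and in the comparison cells of the same class and stages (lower number), with the difference in log2(TPM + 1) as colour; cell numbers stand in the row labels. The comparison cells had Krt10 under 10 TPM in the top 2 rows and were all other cells of the class in the other rows. Jag2 and Dll1 are low and Notch3 high in the strong Krt10 rows, and Dll1, Jag1 and Hey1 are high in the Sox2 rows.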

How the data were processed

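RamDA-seq values of 1614 single cells were read from the deposited table, in which the authors give TPM per gene symbol. The tools named in the submitters' processing notes are HISAT2 2.0.4, featureCounts (Subread 1.5.0) and bcl2fastq 1.0, and the build is mm10. Which annotation was used is not given in the sources used here. All values are shares of each cell's TPM total, depth is unknown, and cells had been sorted into single wells, so no doublet caller was run. Columns of per-sample values not used: 0.

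Cells were classed by the Krt5, Trp63, Col3a1 and Pdgfra thresholds, averaged per plate (at least 3 cells) and over the plates of a stage (at least 10 cells). Tests were two-sided limma 3.58.1 fits in R 4.3.3 (eBayes with trend) on log2(TPM + 1), for genes averaging 1 TPM or more, adjusted by Benjamini-Hochberg over all genes tested, at 0.05. On this scale the change of low genes is understated. Stages were the units and p-values measure the spread between stages. The trend, class and Krt10 (10 TPM) fits were run on simulated data with independent noise per stage. The other fits, with that at Krt10 of 50 TPM, were not. Shares carry exact Clopper-Pearson 95% intervals. Other steps used pandas 2.3.3, numpy 2.4.6, matplotlib 3.10.9 and scipy 1.17.1 under Python 3.11.15, and GENCODE M21 for positions.

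The 10 members are always named. Other pathway genes are named where past a test, at most 3 per list and comparison, and neighbours are the 3 genes with the highest mean partial Spearman correlation. Alternatives were pseudocounts of 0.1 and 5 TPM, other filters, scalings, thresholds and averages, and each stage and E15.0 plate 1 left out. The members, lists, marker sets and cell classes were chosen with earlier results of these data known. Fits within a library description form were chosen after seeing the data.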

Additional observations from a re-analysis of the deposited data

How the results depend on the processing

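The labels give a stage 1 sample, plates name no animal and cells are no replicates, so depth and embryo cannot be told apart from stage. At E11.5 the same holds for the sort, which left out the light step. Title codes, read as plates, are shared by E13.0 and E15.0 and by E15.0 and E17.0, so a code is separable from stage in part. Rescaling each cell to protein-coding genes raised the median over all genes in each class and stage by between 1.14 and 1.27 (log2), and median-of-ratios scaling moved it by -0.16 to 0.14; changes are relative to the TPM total. No paired analysis was possible because the replicate numbers only follow accession order and name cells; pairing was by stage alone, in the class, Krt10, Shh and Sox9 fits.

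Trend calls in epithelial cells were 443, and 30 without a filter, 724 with the mean of log2 values, 1410 with stage rank, 90 in the lane form, 0 in the sample number form and 39 to 408 with a stage left out. Class calls were 5148, and 2789 at a mean of 10 TPM and 2263 to 7083 with a stage left out. Calls on the difference in trend were 0, and 6 at a pseudocount of 5 TPM, 14 at a mean of 10 TPM, 9 with the mean of log2 values, 2 with stricter classes and 0 to 1 with a stage left out. Krt10 calls were 0, and 1 without a filter, 11 in the lane form, 1531 with Krt10 at 50 TPM and 0 to 18 with a stage left out. Shh calls were 64, and 0 without a filter, 107 at a mean of 10 TPM, 342 with the mean of log2 values, 37 with median-of-ratios scaling, 0 in the lane form, 1 with Shh at 50 TPM and 1 to 1365 with a stage left out. Sox9 calls were 0, and 45 at a mean of 10 TPM, 1 with the mean of log2 values, 1 in the lane form, 29 with Sox9 at 50 TPM and 0 to 947 with a stage left out. Among fits with a stage left out, the highest counts for Krt10, Shh and Sox9 came without E12.0 and the lowest trend and class counts without E15.0. The cause was not tested.

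The share of epithelial cells with a ligand and a receptor was 98.2%, and 100.0% at 1 TPM and 71.98% at 50 TPM, and that with Jag1 was 77.9%, and 98.2% at 1 TPM and 46.7% at 50 TPM. Among the members, trend slopes turned for Notch2 with the mean of log2 values (-0.0019), in the lane form (-0.0341) and without E11.5 (-0.0403) or E12.0 (-0.0077), with a highest value of 0.0679 without E13.0. They turned for Jag2 with the mean of log2 values (-0.0817), in the sample number form (-1.16) and without E13.0 (-0.01) or E17.0 (-0.0868), and for Dll1 in the sample number form (-0.0763). Class differences turned for Dll1 at a pseudocount of 5 TPM (-0.0083), in the lane form (-0.43) and without E11.5 (-0.41, against up to 0.68 without E14.0), and for Heyl with looser classes (-1.97, past the threshold). The Shh difference of Heyl turned at 50 TPM (-0.027). Dll1 also passed the trend test at a pseudocount of 5 TPM (limma adjusted p = 0.0465), at a mean of 10 TPM (0.0488) and with stage rank (0.0421), and Jag1 with the mean of log2 values (0.0417). For the 10 members, 187 alternative trend values kept the direction and the side of the threshold, 9 turned and 9 gained a call. No member passed the main trend test, so the side kept there is that of no call. Of the alternative class values, 148 kept both, 14 lost a call, 4 turned and 1 gained a call.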

Other observations

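The 162 cells of neither class carried other sets of Notch genes. Of these, 48 had at least 3 endothelial markers at 10 TPM or more, although the sort was against CD31. They had Dll4, a ligand of vessels, at a mean of 209 TPM, Notch4 at 138 TPM, Notch1 at 322 TPM and Nrarp at 27.3 TPM, against 0.708, 5.85, 224 and 5.92 TPM in the rest. A group of 55 cells with at least 3 nerve and Schwann markers had Heyl at 47.1 TPM and Jag2 at 3.47 TPM, against 17.7 and 69.6 TPM in the other 107. Heyl reached 10 TPM in 78.2% of the 55, and Nrarp in 0.

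A further 9 cells had at least 3 pericyte and smooth muscle markers. Their mean Notch3 was 186 TPM and their mean Heyl 155.6 TPM, and both genes were at 10 TPM or more in 100% of the 9. The other 153 cells averaged 11.53 TPM for Notch3 and 20.2 TPM for Heyl. Jag2 stood at 3.72 against 49.7 TPM and Dll1 at 0.103 against 10.5 TPM. These cells come from several stages and are given as values only.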
